A study of Mus musculus with 16 samples.

Results

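The 9 genes described here, *Gzma*, *Gzmb*, *Gzmk*, *Prf1*, *Nkg7*, *Ctsw*, *Klrb1c*, *Klrd1* and *Klrk1*, encode proteins of the cytotoxic granule and receptors of NK cells. They were taken by symbol from the 31053 genes of the lung and MLN count matrices and from the 32285 genes of the medLN and MLN matrix, and all 9 were found in both. Their UMIs, the unique molecular identifiers that mark single captured transcripts, were read in T helper cells sorted by an IL-4 reporter from mice infected with the nematode *Nippostrongylus brasiliensis* (Nb).

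Cytotoxic lymphocytes kill by emptying granules toward a bound cell. Perforin (*Prf1*) opens its membrane, and granzymes A, B and K (*Gzma*, *Gzmb*, *Gzmk*), which are serine proteases, then enter. *Nkg7* encodes a granule membrane protein and *Ctsw* the cysteine protease cathepsin W, both known from NK cells and cytotoxic T cells. *Klrb1c* encodes NK1.1, *Klrd1* encodes CD94, the partner chain of NKG2 receptors, and *Klrk1* encodes the activating receptor NKG2D. Among T cells these receptors are best known from invariant NKT cells, whose TCR alpha chain joins TRAV11 to TRAJ18, and from CD8 T cells. Granzymes are also known from activated and regulatory CD4 T cells.

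All mice were female 4get mice on the C57BL/6 background, in which eGFP is expressed from the IL-4 locus, and all had been given 500 larvae 10 days earlier, with antibiotics for the first 5 days, so that no comparison here has an uninfected side. In the first run, CD4+IL-4eGFP+ cells of lung and mesenteric lymph node (MLN) from 2 mice aged 13 weeks gave 4 libraries with paired TCR sequencing. The lung had been perfused, but intravascular cells could remain. In the second run, CD4+ cells of the lung-draining mediastinal node (medLN) and the MLN from 2 other mice aged 10 weeks were labelled with hashtags for mouse and node and loaded as 1 IL-4eGFP+ and 1 IL-4eGFP- library. Gate and library therefore cannot be told apart in the second run, and the 4 hashtag samples of a gate shared the droplets of 1 library.

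After filtering, the 4 lung and MLN samples held 416 to 2462 cells and 2798232 to 14512767 UMIs, and the 8 hashtag samples held 1992 to 2249 cells and 7546083 to 10636927 UMIs. Each group held samples of 2 mice. Comparisons of organs and of nodes had 2 samples on each side, and that of the gates had 4. The comparison of TRAV11-TRAJ18 cells with other cells used 3 libraries. The main fits had 2 to 4 residual degrees of freedom and did not pair samples of the same mouse or library. Their p-values rest on a spread that edgeR moderates over all genes, so small p-values do not measure the spread of these few samples alone. Intervals on counts and shares cover counting error only. The runs were processed separately, and no level was tested across them. Transcripts of *Cd3d*, *Cd3e*, *Cd3g* and *Cd4* summed to between 3041 and 4081 CPM in every sample. CPM are a gene's UMIs scaled to a common total in each sample, and the level of a gene is given in CPM throughout. Of the 7 NK cell markers, *Klra8* and *Klri2* had no UMI in either run, and *Ncr1* had none in lung and MLN. The NK list summed to 6.68 to 15.9 CPM in lung and MLN and to 8.11 to 21.6 in the IL-4eGFP+ nodes, against 59.2 to 66.0 in the IL-4eGFP- nodes. The latter sum was mostly *Eomes*, at 41.5 to 53.0 CPM there. Among node cells, *Eomes* was a leading gene of a cluster of 2166 cells, nearly all IL-4eGFP-, led by *Igfbp4* and *Dapl1*. The 2 CD8 genes summed to 6.25 to 11.6 CPM in the IL-4eGFP+ samples and to 19.0 to 23.9 in the IL-4eGFP- samples, and the part of these cells in the results was not tested. Libraries of the lung and MLN run shared 0 to 8 barcodes with each other, and the 2 node libraries shared 147.

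Sequences of 2 kinds bear on the results. The first is the TCR chain that was read independently of the 9 genes. A productive TRAV11-TRAJ18 alpha chain was found in 76 of 4714 lung and MLN cells with a paired TCR. The segments lie on the plus strand of chromosome 14 (GRCm38), *Trav11* at chr14:53519303-53519859 and *Traj18* at chr14:54200777-54200842. The 76 CDR3 regions comprised 12 nucleotide sequences, all 45 bases long. The 4 commonest, found in 67 cells, encoded the same peptide and differed from each other only at base 12, which is printed as a capital:
chain 1: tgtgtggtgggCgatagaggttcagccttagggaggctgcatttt
chain 2: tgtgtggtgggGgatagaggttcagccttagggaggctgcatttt
chain 3: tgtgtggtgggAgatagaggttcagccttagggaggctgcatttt
chain 4: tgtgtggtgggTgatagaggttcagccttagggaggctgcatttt

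Chain 1 was found in 30 cells, chain 2 in 22, chain 3 in 8 and chain 4 in 7. Chains 1 and 2 occurred in all 4 libraries of both mice. *Ctsw* was detected in 23 of the 30 cells with chain 1, in 20 of the 22 with chain 2, in 8 of the 8 with chain 3 and in 6 of the 7 with chain 4, so the gene was seen whichever base stood at position 12. The beta chain of 46 of the 76 cells (60.5%) used the TRBV13 family and that of 19 (25.0%) used TRBV29, against 29.0% and 1.51% of the other cells. The libraries differed: TRBV29 was in 17 of 45 chain cells of MLN 1 but in 0 of 20 of MLN 2. In lung 1 and 2 it was in 1 of 3 and 1 of 8. TRBV13 ran from 46.7% of chain cells in MLN 1 to 90% in MLN 2.

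The second kind is the promoters, 250 bases before to 50 after the RefSeq start on GRCm38.p6, which were available for 7 of the 9 genes (*Ctsw* and *Klrd1* were not matched). The 4 shown belong to granule genes whose levels the results turn on. Capitals mark the letters TGTGGT (or ACCACA on the other strand), the core of RUNX sites, and AGGTGT (or ACACCT), the core of T-box sites, read on both strands:
*Gzma* promoter, chr13:113100932-113101231, minus strand: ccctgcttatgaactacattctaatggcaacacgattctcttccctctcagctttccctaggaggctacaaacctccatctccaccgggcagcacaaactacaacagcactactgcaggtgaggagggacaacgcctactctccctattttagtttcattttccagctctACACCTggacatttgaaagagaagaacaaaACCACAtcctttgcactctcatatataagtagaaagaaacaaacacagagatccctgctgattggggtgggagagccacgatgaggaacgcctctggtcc
*Gzmb* promoter, chr14:56262285-56262584, minus strand: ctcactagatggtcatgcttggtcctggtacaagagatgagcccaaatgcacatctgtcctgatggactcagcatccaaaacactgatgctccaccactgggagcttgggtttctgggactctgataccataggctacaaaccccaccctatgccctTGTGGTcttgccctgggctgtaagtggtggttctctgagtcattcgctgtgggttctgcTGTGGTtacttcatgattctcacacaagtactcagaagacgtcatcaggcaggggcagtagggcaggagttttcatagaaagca
*Nkg7* promoter, chr7:43436888-43437187, plus strand: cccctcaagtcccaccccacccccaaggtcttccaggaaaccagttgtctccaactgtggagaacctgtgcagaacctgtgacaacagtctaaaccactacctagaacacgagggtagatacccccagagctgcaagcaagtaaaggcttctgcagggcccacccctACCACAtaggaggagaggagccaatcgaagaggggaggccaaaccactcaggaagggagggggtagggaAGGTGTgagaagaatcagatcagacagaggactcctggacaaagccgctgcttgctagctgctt
*Prf1* promoter, chr10:61297586-61297885, plus strand: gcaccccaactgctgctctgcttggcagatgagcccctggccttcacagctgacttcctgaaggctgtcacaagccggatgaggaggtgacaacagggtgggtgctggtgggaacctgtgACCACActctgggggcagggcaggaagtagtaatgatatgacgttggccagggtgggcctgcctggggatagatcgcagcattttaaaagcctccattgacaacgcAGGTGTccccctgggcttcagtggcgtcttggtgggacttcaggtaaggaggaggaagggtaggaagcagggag

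The RUNX letters stood in 6 of the 7 promoters, all but that of *Gzmk*, and in 5506 of 32851 promoters of the same length (16.8%). The T-box letters stood in 4 of the 7, those of *Gzma*, *Gzmk*, *Nkg7* and *Prf1*, and in 4514 of 32851 promoters (13.7%). No match of one motif overlapped a match of the other. In the *Gzma* promoter the RUNX letters began 50 bases and the T-box letters 80 bases before the start, and in *Nkg7* the T-box letters began 14 bases before it. *Gzmb* held the RUNX letters at 2 places, 93 and 34 bases before the start. A match of 6 letters is a description of the sequence and not a binding site.

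The genes sit at 6 places in the genome. On GRCm38, *Gzma* (chr13:113093825-113100981, minus strand) and *Gzmk* (chr13:113171608-113225908, minus strand) are 70626 bases apart, and *Gzmb* (chr14:56258838-56262260, minus strand) is elsewhere. *Prf1* is at chr10:61297833-61304680, *Nkg7* at chr7:43437073-43438249, both on the plus strand, and *Ctsw* at chr19:5465043-5468507 on the minus strand, where it overlaps the oppositely oriented *Fibp*. The receptor genes lie within 845380 bases of chromosome 6, *Klrb1c* at chr6:128778485-128789215 (minus strand), *Klrd1* at chr6:129591782-129598775 (plus strand) and *Klrk1* at chr6:129610323-129623864 (minus strand). *Klrb1c* overlaps *Gm44511* on its own strand, so reads shared by both may have been left uncounted and its level is uncertain in absolute terms. *Gzmk* overlaps *Esm1* on the other strand.

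**Figure D1:**
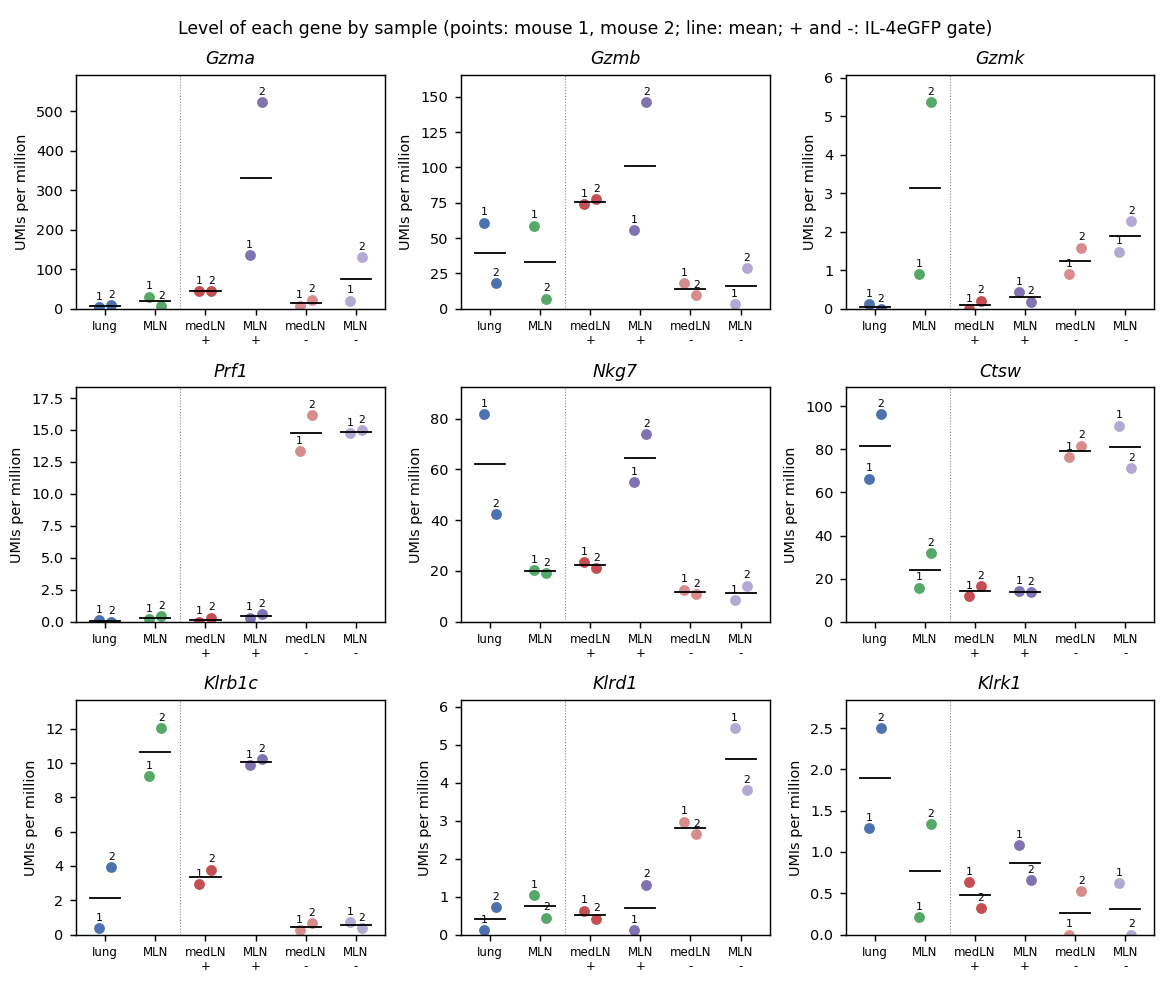
Level of each gene, in CPM (linear axes from 0), in lung and MLN (left of the dotted line) and in medLN and MLN by IL-4eGFP gate (right). Points are samples numbered by mouse, and lines are means of 2 samples; *Prf1* lies at 13.3 to 16.2 in the 4 IL-4eGFP- samples and at or below 0.56 in all others, and *Gzma* reaches its highest value, 523.3, in the IL-4eGFP+ MLN of mouse 2.

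Most of the 9 genes were rare. In lung and MLN, 453 of 4714 cells had a UMI of *Ctsw*, 281 of *Nkg7*, 137 of *Klrb1c*, 131 of *Gzma* and 88 of *Gzmb*, but only 19 of *Klrk1*, 9 of *Gzmk*, 8 of *Klrd1* and 6 of *Prf1*. Among 16748 node cells, 2190 had a UMI of *Ctsw*, 738 of *Gzma*, 444 of *Prf1*, 432 of *Nkg7* and 391 of *Gzmb*, and *Gzmk* and *Klrk1* were again rare, in 25 and 19 cells. Any of the 9 was seen in 94 to 362 cells of a lung or MLN library, in 217 to 587 cells of an IL-4eGFP+ hashtag sample and in 592 to 692 cells of an IL-4eGFP- one. A lower level can mean fewer cells with the gene or less RNA per cell, which summed counts cannot tell apart.

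The comparison of lung with MLN asked which of these genes differ between a peripheral tissue and a lymph node among Th2 cells of the same mice. *Nkg7* and *Ctsw* were higher in lung and *Klrb1c* was higher in MLN, while the granzymes were carried by a few cells and did not pass the test. *Nkg7* stood at 81.8 and 42.5 CPM in lung 1 and 2 and at 20.5 and 19.2 in MLN 1 and 2. Both lung values lay above both MLN values, a difference of 3.61-fold (log2 1.85 ± 0.28, SE, n = 2 per group, edgeR adjusted p = 0.00108). *Ctsw* stood at 66.4 and 96.5 in lung and at 15.8 and 31.9 in MLN, again without overlap, 3.92-fold higher in lung (log2 1.97 ± 0.27, edgeR adjusted p = 0.00061). *Klrb1c* had the opposite order, with 0.35 and 3.93 in lung against 9.23 and 12.1 in MLN, 6.86-fold lower in lung (log2 -2.78 ± 0.61, edgeR adjusted p = 0.00774). The sizes depended on lung 1 and lung 2: *Klrb1c* was at log2 -1.33 without lung 1 and -4.62 without lung 2, and *Nkg7* at 1.14 without lung 1, and all were still called. These 3 were the called genes among the 5 that had enough counts to be tested, and 31.0% of all genes tested were called in this comparison.

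The granzyme levels overlapped between lung and MLN. *Gzma* stood at 4.70 and 9.29 CPM in lung and at 30.9 and 6.92 in MLN, so that MLN 2 fell between the lung samples (log2 -1.62 ± 0.58, 95% interval -2.75 to -0.49, edgeR adjusted p = 0.059). *Gzmb* stood at 61.0 and 18.2 in lung and at 58.8 and 7.15 in MLN, with mouse 1 above mouse 2 in both organs (log2 0.40 ± 0.67, interval -0.91 to 1.71, edgeR adjusted p = 0.686). With the mouse as a block, *Gzma* was called lower in lung (log2 -1.57, edgeR adjusted p = 0.000959) and *Gzmb* higher (log2 0.52, edgeR adjusted p = 0.0207), and the number of called members rose from 3 to 5. Without MLN 1, the *Gzma* difference vanished (log2 0.03) and *Gzmb* was called higher in lung (log2 2.74), and without lung 1 *Gzmb* pointed the other way (log2 -0.99). A handful of cells set these values: in MLN 1, 853 *Gzmb* UMIs came from 34 cells, 3 of which held more than 50% of them, and 1 held 241. The shares of cells with a UMI did not overlap, and their difference was not tested. *Gzma* was seen in 0.74% and 1.2% of lung cells and in 4.31% and 1.59% of MLN cells. After thinning to 2000 UMIs, which left out cells with fewer, the shares were 0.37%, 0.25%, 2.36% and 0.67%. *Gzmb* was seen in 3.42% and 2.64% of lung cells and in 1.38% and 0.80% of MLN cells, and after thinning in 1.87%, 1.961%, 0.995% and 0.40%.

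The remaining genes were too low in lung and MLN for a test. *Prf1* had 6 UMIs, 1 of them from lung (mouse 1) and 5 from MLN. *Gzmk* had 38 UMIs, 37 of them in MLN. *Klrd1* was at 0.12 and 0.71 CPM in lung and at 1.03 and 0.45 in MLN, and *Klrk1* at 1.29 and 2.50 in lung and at 0.21 and 1.34 in MLN, and the organs overlapped for both receptors.

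The TRAV11-TRAJ18 cells were unevenly spread over the libraries. Lung held 11 of the 76 cells (3 from mouse 1 and 8 from mouse 2), and MLN held 45 from mouse 1 and 20 from mouse 2. They held 17.7% of the *Ctsw* UMIs, 13.3% of the *Nkg7* UMIs and 22.3% of the *Klrb1c* UMIs of the run, although they were few among 4714 cells. In the MLN libraries they held 50.2% and 52.4% of all *Ctsw* UMIs and 32.3% and 30.2% of all *Nkg7* UMIs. Without them, *Ctsw* fell from 15.8 and 31.9 to 8.0 and 15.5 CPM in MLN 1 and 2, and stayed at 66.1 and 91.0 in lung. *Nkg7* stood at 81.5 and 31.3 in lung and at 14.1 and 13.7 in MLN without them. Both genes therefore kept higher values in both lung samples, and the number of called members stayed at 3. *Klrb1c* without these cells stood at 0.35 and 0.36 in lung against 7.93 and 9.12 in MLN, so that all but a trace of the lung 2 value of 3.93 came from them, against a smaller part of the MLN values.

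Within a library, the chain marked cells with far more *Ctsw*, *Nkg7* and *Klrb1c*. The comparison used lung 2, MLN 1 and MLN 2, which had at least 5 such cells. *Ctsw* stood at 400.4 CPM in the chain cells and 91.0 in the other cells of lung 2, at 448.8 against 8.0 in MLN 1 and at 811.2 against 15.5 in MLN 2. The difference was 24.7-fold (log2 4.63 ± 0.39, n = 3 libraries, edgeR adjusted p = 6.53e-10), and 63 of the 76 cells had a *Ctsw* UMI (82.9%, exact 95% interval 72.5 to 90.6) against 8.41% of the 4638 others, at median depths of 4893.5 and 5432.0 UMIs. *Nkg7* stood at 660.6 against 31.3, 374.7 against 14.1 and 281.2 against 13.7 in the same order, 22.4-fold higher (log2 4.49 ± 0.21, edgeR adjusted p = 1.38e-16). *Klrb1c* stood at 200.2 against 0.36, 82.0 against 7.93 and 151.4 against 9.12, 16.8-fold higher (log2 4.07 ± 0.46, edgeR adjusted p = 2.19e-07). In each of the 3 libraries the level summed over the chain cells was above that summed over the other cells. All 3 genes were called whichever library was left out, but the *Ctsw* difference was log2 3.87 without MLN 1 and 5.78 without lung 2, and the *Klrb1c* difference was 4.91 without MLN 1.

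*Klrd1* and *Klrk1* were also called higher in the chain cells, from few molecules. *Klrd1* had 11 UMIs in 4 of the 76 chain cells and 9 UMIs in 4 of the 4638 other cells (log2 6.07 ± 1.04, edgeR adjusted p = 0.000217), and *Klrk1* had 13 UMIs in 6 chain cells and 14 in 13 others (log2 6.38 ± 1.19, edgeR adjusted p = 0.000642). The *Klrd1* call was lost without MLN 2 (edgeR adjusted p = 0.118). With MLN 1 left out *Klrd1* fell below the low-count filter, as did *Klrk1* with any of the 3 libraries left out, and neither could be tested. In all, 5 of the 7 members tested were called, all higher, against 3.92% of all genes tested.

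Granzymes were not higher in the chain cells. *Gzma* had 0 UMIs in the 76 chain cells, which allows up to 7.18 CPM, and stood at 18.3 in the other cells, and the fitted difference was not called (edgeR adjusted p = 0.224). *Gzmb* had 3 UMIs in 2 chain cells, or 7.18 CPM, against 48.6 in the others (log2 -2.85 ± 1.56, edgeR adjusted p = 0.421). With the library as a block, both were called lower in the chain cells (edgeR adjusted p = 0.0174 for *Gzma* and 0.00825 for *Gzmb*). *Gzmk* had no UMI in the chain cells, where up to 7.18 CPM would be missed, and 1.27 in the others. *Prf1* could not be tested either, but all 6 *Prf1* UMIs of the run were in 6 different chain cells (7.89%, exact 95% interval 2.95 to 16.4), and none was in the 4638 other cells, which allows up to 0.1 CPM.

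**Figure D2:**
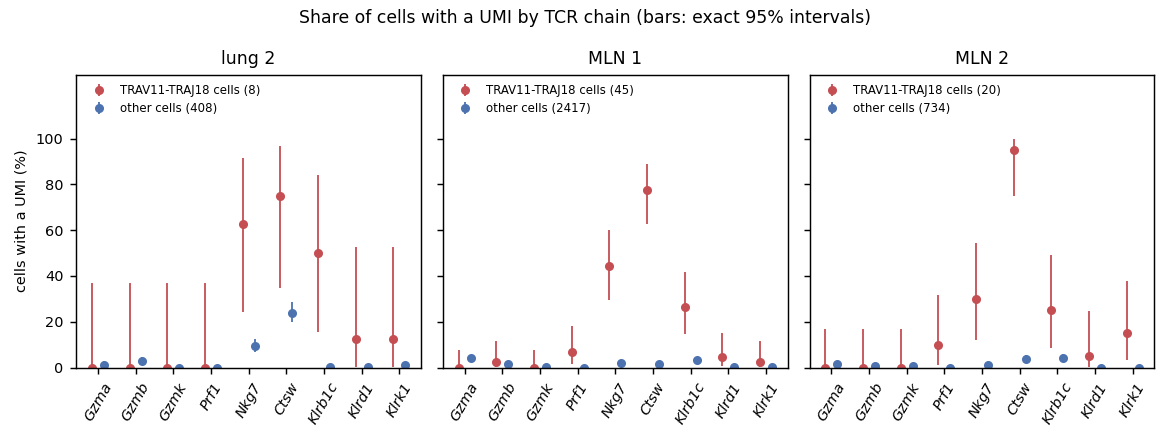
Share of cells with at least 1 UMI of each gene (linear axis, percent) among cells with the TRAV11-TRAJ18 chain (red) and all other cells (blue) of lung 2, MLN 1 and MLN 2, with exact 95% intervals for counting error as bars and cell numbers in the legends. For *Ctsw*, 75.0%, 77.8% and 95% of chain cells had a UMI against 24.0%, 1.78% and 3.68% of the others, while *Gzma* was seen in no chain cell.

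Lists of related genes were read in the same comparison. Of 16 other granule and killing genes tested, 3 were higher and 2 lower in chain cells. *Ccl5*, a chemokine of effector T cells, was higher (log2 7.0 ± 0.20), as were *Xcl1* (6.76 ± 0.52) and *Fasl*, the ligand of the death receptor Fas (3.21 ± 0.32), whereas *Cst7*, an inhibitor of granule cathepsins, was lower (-1.41 ± 0.29). Of 8 other NK receptor and adaptor genes tested, *Slamf7* (log2 3.01 ± 0.48), *Cd226* (2.82 ± 0.32) and *Cd160* (1.85 ± 0.28) were higher and none was lower. Of 9 transcription factors known to act on these genes, 4 were higher, *Zfp683* (log2 5.63 ± 0.97), *Tbx21*, which encodes T-bet (5.63 ± 0.47), *Hopx* (2.49 ± 0.39) and *Id2* (2.33 ± 0.26). All 12 genes called in these lists had an edgeR adjusted p of 0.0482 or less, and the median log2 difference over all genes tested was -0.11. Over all genes tested, 3.92% were called in either direction.

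Between lung and MLN, the related lists moved as follows. All 8 transcription factors tested were higher in lung, among them *Bhlhe40* (log2 4.43 ± 0.19), *Zeb2* (3.62 ± 0.31), *Nfil3* (2.05 ± 0.23), *Runx3* (1.13 ± 0.12) and *Id2* (1.11 ± 0.17), these 5 with an edgeR adjusted p of 0.00102 or less. The median of the list was 2.13, against -0.01 over all genes tested. Of the 16 other granule and killing genes, 6 were higher in lung and 2 lower, *Fasl* at log2 2.59 ± 0.15 and *Cst7* at -0.99 ± 0.23 among them. Of 8 other NK receptor genes, 1 was higher and 2 were lower, *Cd160* by log2 -3.93 ± 0.24. In this comparison 31.0% of all genes tested were called in either direction, and the count of the NK receptor list was near that share.

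The second run compared the lung-draining with the gut-draining node within each gate, so both sides were lymph nodes. In IL-4eGFP+ cells *Gzma*, *Nkg7* and *Klrb1c* were lower in medLN than in MLN, whereas *Ctsw* and *Gzmb* did not pass the test. *Gzma* stood at 45.2 and 45.1 CPM in medLN 1 and 2 and at 136.7 and 523.3 in MLN 1 and 2. Both MLN samples were above both medLN samples, and MLN 2 was far above MLN 1. The difference was 7.40-fold (log2 -2.89 ± 0.52, medLN minus MLN, n = 2 per group, edgeR adjusted p = 0.0382), and it was lost without medLN 1 (edgeR adjusted p = 0.283) or without medLN 2 (0.339). It was log2 -3.56 without MLN 1 and -1.60 without MLN 2. *Nkg7* stood at 23.4 and 21.2 in medLN and at 54.97 and 74.0 in MLN (log2 -1.55 ± 0.15, edgeR adjusted p = 0.00438), a call lost without medLN 1 (0.0524). *Klrb1c* stood at 2.94 and 3.79 in medLN and at 9.89 and 10.3 in MLN (log2 -1.59 ± 0.21, edgeR adjusted p = 0.0127), and that call was lost without MLN 2 (0.0518), medLN 1 (0.129) or medLN 2 (0.0599). The 3 called members were 3 of 5 tested, where 1.28% of all genes tested were called.

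*Gzmb* and *Ctsw* had overlapping or near values in the nodes. *Gzmb* stood at 73.8 and 77.4 in medLN and at 55.5 and 146.3 in MLN (log2 -0.44 ± 0.35, interval -1.12 to 0.25). *Ctsw* stood at 11.8 and 16.4 in medLN and at 14.2 and 13.6 in MLN (log2 0.01 ± 0.16, interval -0.31 to 0.33). Of the related lists, *Cd160* (log2 -1.32 ± 0.17), *Cst7* (-0.44 ± 0.06), *Serpinb6b*, a granzyme inhibitor (-0.60 ± 0.09), and *Nfil3* (-0.78 ± 0.10) were lower in medLN, and *Id2* was higher (0.56 ± 0.08).

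In IL-4eGFP- cells no member passed the test between the nodes. 7 were tested, and 0.178% of all genes tested were called (19 by edgeR, and 666 at an unadjusted p under 0.05). *Gzma* stood at 8.02 and 23.5 CPM in medLN and at 20.7 and 130.9 in MLN, with overlap and with mouse 2 above mouse 1 in each node (log2 -2.33 ± 0.65, interval -3.61 to -1.05, edgeR adjusted p = 0.442). With the mouse as a block, *Gzma* was called lower in medLN (log2 -2.26, edgeR adjusted p = 7.63e-08, with 1 residual degree of freedom). *Klrd1* stood at 2.97 and 2.65 in medLN and at 5.45 and 3.8 in MLN without overlap (log2 -0.77 ± 0.30, edgeR adjusted p = 0.641). *Prf1* stood at 13.3 and 16.2 in medLN and at 14.7 and 14.96 in MLN (log2 -0.07), and *Ctsw* at 76.4 and 81.8 against 91.0 and 71.4 (log2 -0.09).

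The test of whether the node difference itself changed between the gates called 0 of 8 members with edgeR, with 0.156% of all genes called (18, and 807 at an unadjusted p under 0.05). The nearest was *Nkg7*, whose medLN minus MLN difference was lower by log2 1.55 ± 0.31 in IL-4eGFP+ cells (95% interval -2.16 to -0.93, edgeR adjusted p = 0.141). It was called with the hashtag sample as a block (log2 -1.54, edgeR adjusted p = 0.0012) and by DESeq2 (adjusted p = 0.0109). For *Gzma* the difference of the differences was not called in any of 16 alternatives, over which its log2 value ran from -2.46 to 0.74. The alternative without doublets removed no node cell, so it could not move these values. Among the transcription factors, *Eomes* was the 1 gene whose node difference changed with the gate (log2 1.95 ± 0.26, edgeR adjusted p = 0.0249). In IL-4eGFP+ cells there were only 22 and 26 *Eomes* UMIs in medLN 1 and 2 and 7 and 9 in MLN 1 and 2. The IL-4eGFP- samples held 349 and 313 in medLN and 428 and 404 in MLN.

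The gates differed for all 8 members tested, 4 higher and 4 lower in IL-4eGFP+ cells, in a comparison where 62.1% of all genes tested were called. The 4 higher genes were *Klrb1c*, *Gzmb*, *Gzma* and *Nkg7*, and the 4 lower were *Prf1*, *Gzmk*, *Ctsw* and *Klrd1*. Each gate was 1 library, so these are also differences between 2 libraries. A list of 7 naive T cell markers summed to 2555 to 2794 CPM in IL-4eGFP- samples and to 582 to 856 in IL-4eGFP+ samples. The part of naive-like cells in the gate differences was not tested. *Prf1* had the widest gap: 0 to 0.56 CPM in the 4 IL-4eGFP+ samples against 13.3, 16.2, 14.7 and 14.96 in the IL-4eGFP- samples (log2 -5.89 ± 0.26, n = 4 per gate, edgeR adjusted p = 1.14e-08). *Ctsw* stood at 11.8 to 16.4 in IL-4eGFP+ and 71.4 to 91.0 in IL-4eGFP- samples, 6.51-fold lower (log2 -2.70 ± 0.10, edgeR adjusted p = 2.91e-09). *Klrd1* stood at 0.11 to 1.32 against 2.65 to 5.45 (log2 -2.68 ± 0.43, edgeR adjusted p = 0.000244). *Gzmk* stood at 0 to 0.43 against 0.91 to 2.28 (log2 -3.17 ± 0.54, edgeR adjusted p = 0.00041), from 8 and 49 UMIs. For these 4 genes the gates did not overlap. Leaving out 1 IL-4eGFP+ sample left all 4 called but moved *Prf1* to log2 -7.64 and *Gzmk* to -4.65 (without medLN 2) and *Klrd1* to -4.01 (without MLN 2).

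*Klrb1c* went the other way, from 2.94 to 10.3 CPM in IL-4eGFP+ samples to 0.26 to 0.74 in IL-4eGFP- samples, 9.83-fold (log2 3.30 ± 0.28, edgeR adjusted p = 1.55e-06). *Nkg7* stood at 21.2 to 74.0 against 8.55 to 14.2 (log2 1.52 ± 0.15, edgeR adjusted p = 7.2e-06), and *Gzmb* at 55.5 to 146.3 against 3.59 to 29.0 (log2 2.35 ± 0.44, edgeR adjusted p = 0.000788), both without overlap. Without MLN 2 of the IL-4eGFP- gate, *Gzmb* was at log2 3.45 and *Gzma* at 2.59, both called. With all samples, *Gzma* stood at 45.1 to 523.3 against 8.02 to 130.9, and the MLN 2 sample of the IL-4eGFP- gate lay above both medLN samples of the IL-4eGFP+ gate (log2 1.64 ± 0.57, edgeR adjusted p = 0.0264). That call was lost by DESeq2 (adjusted p = 0.0968) and, in edgeR, without MLN 2 (log2 0.98, adjusted p = 0.13), medLN 1 (0.0561) or medLN 2 (0.0553) of the IL-4eGFP+ gate, or without MLN 1 (0.0516) or medLN 1 (0.107) of the IL-4eGFP- gate. *Klrk1* was not tested, with 26 UMIs in IL-4eGFP+ and 9 in IL-4eGFP- cells.

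The transcription factor list also split between the gates. *Eomes* was lower in IL-4eGFP+ cells (log2 -5.23 ± 0.10), at 0.76 to 2.74 CPM against 41.5 to 53.0, and *Hopx* was lower as well (-0.66 ± 0.09), whereas *Bhlhe40* (2.53 ± 0.12), *Id2* (2.50 ± 0.07) and *Nfil3* (1.79 ± 0.11) were higher. In all, 6 of 10 were higher and 2 lower, where 62.1% of all genes tested were called in either direction. Of 16 other granule and killing genes, 9 were higher and 2 lower in IL-4eGFP+ cells, led by *Stx11*, a SNARE protein of granule release (2.73 ± 0.17), and *Srgn*, the granule proteoglycan serglycin (1.15 ± 0.08). Of 9 other NK receptor genes, 2 were higher and 3 lower, and the counts of the last 2 lists were near that share.

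The molecules of these genes were spread over cells in different ways. Granzyme UMIs sat in few cells with many molecules each. In the IL-4eGFP+ nodes, 624 of 8074 cells had a *Gzma* UMI, together 7682 UMIs, and 45 of them held at least 50%. *Gzmb* had 3504 UMIs in 323 cells, at least 50% of them in 32. In MLN 2 alone, 343 cells held 5566 *Gzma* UMIs, and 1 cell held 355. In the IL-4eGFP- nodes, 1438 *Gzma* UMIs came from 114 cells, and 5 cells held at least 50%. *Ctsw* and *Prf1* in the IL-4eGFP- nodes were the reverse: 75.4% of the 1878 cells with *Ctsw* and 94.2% of the 432 cells with *Prf1* had 1 UMI. A change in the granzyme level of a sample can therefore rest on a few cells, whereas at least 50% of the *Ctsw* UMIs of the IL-4eGFP- gate took 625 cells and of the *Prf1* UMIs 201.

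**Figure D3:**
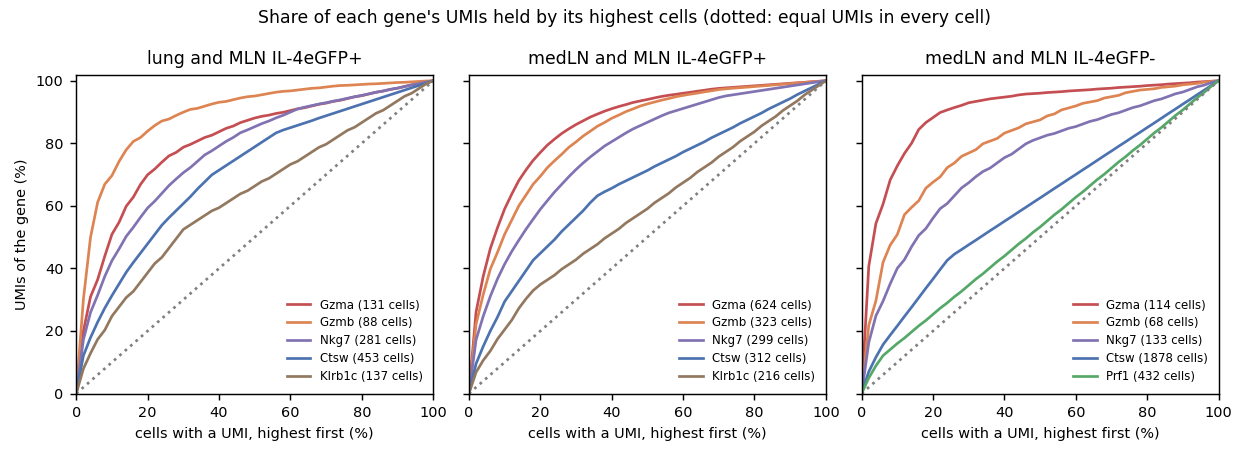
Cumulative share of each gene's UMIs (vertical axis, percent) held by the cells with a UMI, ordered from the highest cell (horizontal axis, percent of those cells), in lung and MLN IL-4eGFP+ cells and in node cells of each gate; the dotted line is equal UMIs in every cell. Numbers in the legends are cells with a UMI. The highest 10% of *Gzma* cells in the IL-4eGFP- nodes held 72.8% of its UMIs, and the highest 10% of *Prf1* cells held 16%.

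Shares of cells are less moved by single cells with many molecules than levels are. *Gzma* was seen in 2.62% and 2.82% of IL-4eGFP+ cells of medLN 1 and 2 and in 8.53% and 17.1% of MLN 1 and 2. After thinning to 2000 UMIs, which left out cells with fewer, the shares were 1.84%, 2.13%, 6.19% and 13.6%. In the IL-4eGFP- samples *Gzma* was seen in 0.88% to 2.31% of cells, so that the *Gzma* shares of the gates did not overlap although the levels did. *Ctsw* was seen in 20.2% to 24.0% of cells in the IL-4eGFP- samples and in 3.36% to 4.21% in the IL-4eGFP+ samples, and in 20.8% and 25.0% of lung cells against 3.17% and 6.1% of MLN cells. *Prf1* was seen in 4.38% to 5.36% of cells in the IL-4eGFP- samples and in 0% to 0.30% in the IL-4eGFP+ samples.

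Clusters of cells were built without the 9 genes, each run on its own, and levels by cluster are given as a description. In lung and MLN, *Ctsw*, *Nkg7* and *Klrb1c* had their highest levels in a cluster of 88 cells led by *Ccl5* and *Zbtb16*, 62 of which carried the TRAV11-TRAJ18 chain. It was left unnamed because its leading genes held as many NKT as Th1 markers. *Ctsw* stood at 627.5, *Nkg7* at 427.0, *Klrb1c* at 136.8, *Klrd1* and *Klrk1* at 33.0 each and *Prf1* at 14.2 CPM there. The cluster held all 6 *Prf1* UMIs and 70.0% of the *Klrd1* UMIs of the run, although its median of 4714 UMIs per cell was no higher than that of most clusters.

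Most *Nkg7* and *Ctsw* molecules of the run were in the Th2 effector-like cluster led by *Cxcl2* and *Calca*. It held 845 of 1082 cells of lung 1 and 296 of 416 of lung 2 but 2 cells of each MLN library. Its 1145 cells held 62.7% of the *Nkg7* and 57.5% of the *Ctsw* UMIs of the run, at 95.8 and 88.5 CPM, and no *Klrb1c* UMI. It also held 31.0% of the *Gzmb* UMIs, at 57.5 CPM, and 423 of these 451 UMIs were from lung 1. *Gzmb* was highest in the cycling-like cluster, at 146.2 CPM in 308 cells with a median of 14270.5 UMIs, which held 47.0% of its UMIs. That *Gzmb* level was set by MLN 1, at 284.6 CPM, against 43.5 in lung 1, 37.4 in lung 2 and 30.7 in MLN 2. The next was a cluster led by *Deptor* and *Ccr9* of 236 cells, nearly all from MLN, where *Gzmb* stood at 111.6, *Gzma* at 87.4, *Nkg7* at 99.2 and *Gzmk* at 14.2. These levels were mostly from mouse 1, with *Gzma* at 125.2 in MLN 1 and 9.94 in MLN 2, *Gzmb* at 152.3 and 29.8 and *Nkg7* at 127.8 and 43.7. *Gzma* was second in the interferon response-like cluster, at 49.2. Outside the *Ccl5* and *Zbtb16* cluster, *Klrb1c* was highest in a cluster led by *Padi4* and *Sostdc1*, where 10.5% of 172 cells had a UMI.

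**Figure D4:**
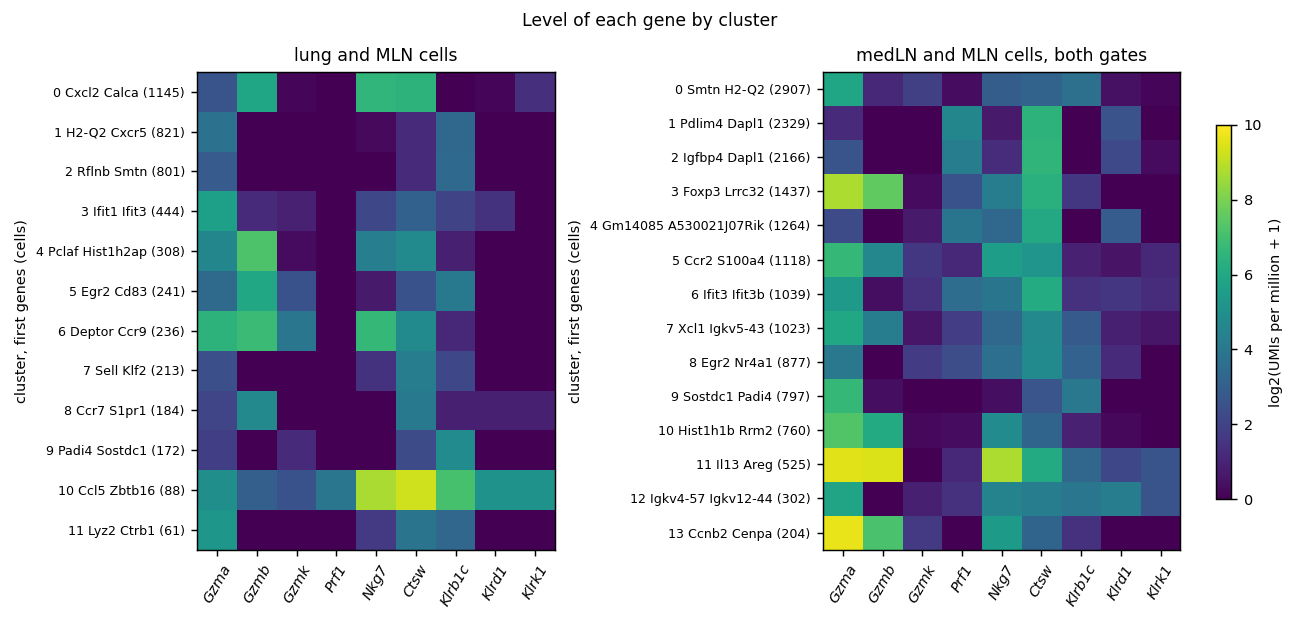
Level of each gene by cluster in lung and MLN (left) and in the nodes of both gates (right), as log2(CPM + 1) on a colour scale from 0 to 10. Rows are clusters labelled with their number, their 2 leading genes other than the 9 shown, and their cell number. *Ctsw* peaks at 627.5 CPM in the *Ccl5* and *Zbtb16* cluster. In the nodes *Gzma* peaks in the *Ccnb2* cluster and *Gzmb* in the *Il13* cluster.

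In the nodes, *Gzma* and *Gzmb*, summed over all samples, were highest in 4 clusters. The Th2 effector-like cluster led by *Il13* and *Areg* (525 cells) stood at 742.0 CPM for *Gzma*, 712.1 for *Gzmb* and 433.3 for *Nkg7*, and held 46.1% of the *Gzmb* and 53.7% of the *Nkg7* UMIs. The Treg-like cluster led by *Foxp3* (1437 cells, of both gates) stood at 436.6 for *Gzma* and 186.9 for *Gzmb*. Its *Gzma* level ran from 48.7 in medLN 1 of the IL-4eGFP- gate to 2968 in MLN 2 of the IL-4eGFP+ gate. A cluster led by *Ccnb2* and *Cenpa* (204 cells) stood at 814.4 for *Gzma* and 140.3 for *Gzmb*, and a cluster led by *Hist1h1b* and *Rrm2* (760 cells with a median of 14338 UMIs) at 154.4 and 68.7. Both of the last 2 were led by genes of the cell cycle. Over the IL-4eGFP+ samples *Gzma* ran from 96.8 to 1362 in the *Il13* cluster and from 20.7 to 1829 in the *Ccnb2* cluster, with MLN 2 the highest in each.

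*Prf1* was highest in 2 clusters led by *Dapl1* and *Igfbp4*, which held 2329 and 2166 cells, nearly all IL-4eGFP-, and where *Gzmb* had no UMI. Of the marker lists, that of naive T cells held the most of their leading genes, 2 in each cluster. In the first of these *Prf1* was seen in 7.10%, 7.41%, 7.50% and 6.65% of the IL-4eGFP- cells of medLN 1, medLN 2, MLN 1 and MLN 2, and in the Treg-like cluster of the same library in 1.12%, 1.5%, 1.38% and 3.15%. The 4 samples of the first cluster were above those of the Treg-like cluster, and median depths were 3290 and 2746 UMIs over both gates. Over all node cells the *Dapl1* clusters stood at 23.3 and 17.2 CPM for *Prf1* and at 86.3 and 91.8 for *Ctsw*, with *Ctsw* also at 80.8 in the Treg-like cluster. In the Tfh-like cluster led by *Sostdc1* and *Padi4*, *Prf1* had no UMI in 797 cells. That cluster had the highest *Klrb1c* level of the nodes, at 14.99.

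The higher share of cells with *Gzma* in MLN was not limited to 1 cluster of IL-4eGFP+ node cells. Of 10 clusters with at least 20 IL-4eGFP+ cells in each of the 4 hashtag samples, the share of cells with *Gzma* was higher in both MLN samples than in both medLN samples in 10. In the Tfh-like cluster *Gzma* was seen in 0.68% and 1.51% of medLN cells and in 6.73% and 13.3% of MLN cells, and in the Treg-like cluster in 2.56% and 7.41% against 21.8% and 47.5%. In the *Hist1h1b* cluster the *Gzma* shares were 6.18% and 7.29% against 21.8% and 34.7%. All 4 samples came from the droplets of 1 library, and the part of free RNA in these shares was not tested. The 10 clusters are parts of the same 4 samples, so they are not 10 separate observations. The same order held in 4 of the 10 clusters for *Gzmb*, in 5 for *Klrb1c*, in 2 for *Nkg7* and in 1 for *Ctsw*, which had the opposite order in 2. By level, *Gzma* in the Th2 effector-like cluster stood at 527.5 and 96.8 CPM in medLN against 455.4 and 1362 in MLN, with overlap. In the Treg-like cluster it stood at 107.6 and 254.6 against 237.9 and 2968, again with overlap. It did not overlap in the Tfh-like cluster (3.42 and 3.96 against 60.4 and 255.8) or the *Ccnb2* cluster (20.7 and 398.0 against 642.3 and 1829). The level of *Gzmb* in the Th2 effector-like cluster stood at 924.8 and 1019 CPM in medLN against 280.1 and 733.6 in MLN. The *Nkg7* levels of that cluster had the reverse order, at 304.7 and 197.7 against 689.7 and 443.5. The shares of its cells with *Gzmb* overlapped, at 23.0% and 23.8% in medLN and 15.9% and 31.1% in MLN.

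**Figure D5:**
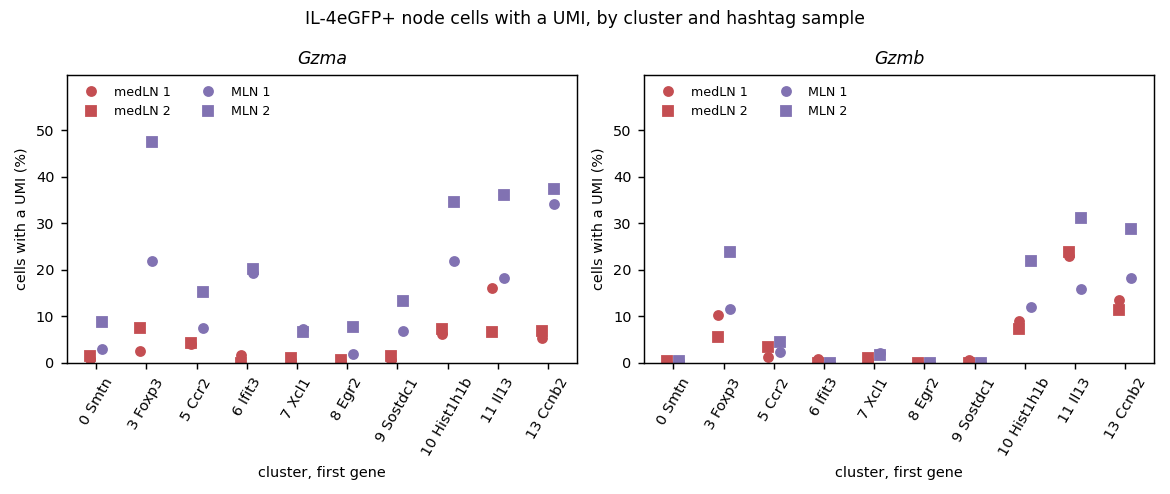
Share of IL-4eGFP+ node cells with a UMI of *Gzma* (left) and *Gzmb* (right), in percent, for each cluster with at least 20 cells in every sample, labelled with its number and leading gene. Circles are mouse 1 and squares mouse 2, red medLN and purple MLN. For *Gzma* both purple points lie above both red points in all 10 clusters, up to 47.5% in the *Foxp3* cluster, and for *Gzmb* in 4.

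In the IL-4eGFP+ nodes *Gzmb* was detected more often in *Gzma* cells than in other cells, which is given as a description because deeper cells show more genes. There 21.0% of the 624 *Gzma* cells had *Gzmb*, against 2.58% of the others. In MLN of the first run 4.24% of the 118 *Gzma* cells had *Gzmb*, against 1.13% of the others. Of 323 IL-4eGFP+ node cells with *Gzmb*, 40.6% also had *Gzma*, against 6.36% of the cells without *Gzmb*, and 26.6% had *Nkg7* against 2.75%. The *Gzmb* cells were deeper, with a median of 6731 UMIs against 3284. In each of the 4 hashtag samples the share of *Gzma* cells with *Gzmb* was above that of the other cells, from 15.3% against 2.09% in MLN 1 to 24.8% against 3.55% in MLN 2. *Ctsw* was not tied to *Gzmb* in the same way, at 4.64% against 3.83%. *Nkg7* and *Ctsw* were detected together in lung and MLN: of the 85 MLN cells with *Nkg7*, 47.1% had *Ctsw* against 2.68% of the others. The contrast was smaller in lung, where 43.9% of the 196 cells with *Nkg7* had *Ctsw* against 18.7% of the others. These shares include the TRAV11-TRAJ18 cells, whose part in them was not tested.

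Some markers were seen more often in granzyme cells than in the other cells of the same gate. Among IL-4eGFP- cells, 76.5% of the 68 cells with *Gzmb* had a UMI of *Foxp3*, the transcription factor of regulatory T cells, against 9.83% of the others, and 39.5% of the 114 cells with *Gzma* did, against 9.97%. Among IL-4eGFP+ cells, 11.8% of *Gzmb* cells and 10.9% of *Gzma* cells had *Foxp3*, against 1.65% and 1.31% of the others. The *Gzmb* cells of this gate more often had *Il13* or *Il5* (17.6% against 1.93%) and the gut-homing receptor *Ccr9* (39.9% against 5.56%), and *Gzma* cells had *Ccr9* in 29.0% against 5.09% but *Il13* or *Il5* in 2.56% against 2.56%. *Nkg7* cells of this gate had *Il13* or *Il5* in 26.1% against 1.66%. The shares of this gate pool both nodes, and the *Gzma* cells were 54 and 57 from medLN 1 and 2 but 170 and 343 from MLN 1 and 2. The cells with a member were also deeper, with medians of 6731 UMIs against 3284 for *Gzmb*, 5091 against 3256 for *Gzma* and 5653 against 3301 for *Nkg7*. The part of node and depth in these shares was not tested. *Cd8a* or *Cd8b1* was seen in 4.97% of *Gzma* cells and 3.07% of the others, and its part in these values was not tested. Without the Treg-like cluster, an alternative chosen after the data had been seen, the log2 difference between the gates was 3.37 for *Gzma* and 4.73 for *Gzmb*, against 1.64 and 2.35 with it, and all 8 members were still called. Between the nodes of the IL-4eGFP+ gate *Gzma* then stood at log2 -2.80 (edgeR adjusted p = 0.0277).

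Genes that were enriched in the same way in cells with a member were ranked by the lowest log2 ratio over samples, with 1 CPM added. In the IL-4eGFP+ nodes, *Gzmb* cells were led by *Gzma* itself (2.88 to 5.26), then by *1700061F12Rik*, *Neb*, *Il1rl1*, the IL-33 receptor (2.55 to 3.8), and *Il10* (2.45 to 6.38). *Gzma* cells were led by *Itgae* (1.90 to 2.25), then by *Ly6g5b*, *Ecm1*, *Cysltr1* and *Foxp3* (1.52 to 2.77). *Nkg7* cells were led by *Ccl5* (4.04 to 4.94) and *Hdc*, the histamine-forming enzyme (3.30 to 6.09). In the IL-4eGFP- nodes, *Gzmb* cells were led by *Mmp9*, *Ccr2*, *Itgae*, *Asb2* and *Klrg1* and *Nkg7* cells by *Ccl5* and *Gzmk* (4.19 to 6.34). *Gzma* cells there were led by *Mxd3* (2.46 to 3.71), then by *Ifitm3*, *Cenps*, *Diaph3* and *Mki67* (2.26 to 4.61). In lung and MLN, *Nkg7* cells were led by *Tbx21* (2.66 to 4.34) and *Xcl1* (2.43 to 5.02). *Gzma* cells could be ranked in MLN only and were led by *Hist1h2bk* (1.81 to 2.14), *Cdc20*, *Knstrn*, *Ccnb1* and *Cenpf* (1.57 to 2.08). Cells of 1 sample share a library, so these ratios describe the samples and carry no test.

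TCR clonality could be read in the first run only. The 281 *Nkg7* cells belonged to 260 clones and the 453 *Ctsw* cells to 426, with at most 4 cells of a clone. The 131 *Gzma* cells belonged to 127 clones and the 88 *Gzmb* cells to 87. Of the *Gzmb* cells, 43.2% belonged to clones of 2 or more cells, against 27.8% of the cells without it, and the *Gzmb* value was the higher one in all 4 libraries, with 6 to 37 *Gzmb* cells in each. For *Ctsw* the shares were 27.8% and 28.1% in all, but 8.97% and 8.70% in MLN 1 and 2 against 30.3% and 13.3%, 42.2% in lung 1 against 36.5%, and 19.2% in lung 2 against 21.8%.

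The nodes had no TCR sequencing, and a UMI of *Trav11* was the nearest mark. It is a weak one, since 11.8% of the TRAV11-TRAJ18 cells of the first run had such a UMI and 64.3% of the cells with such a UMI carried the chain. The 15 IL-4eGFP+ node cells with it stood at 169.0 CPM for *Nkg7* against 43.8 in the others, and at 139.2 against 13.7 for *Ctsw*. *Klrb1c* had 1 UMI in them, and *Gzma* 1 UMI, or 9.94 CPM against 198.2. These 15 cells and the 2 such IL-4eGFP- cells were then left out. As with them, 3 members were called between the nodes in the IL-4eGFP+ gate, 0 in the IL-4eGFP- gate and 8 between the gates. The mark missed most chain cells of the first run, so this cannot show the part of chain cells in the node results.

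Genes whose level followed that of a member over the 8 node samples were ranked by the Pearson correlation of log2(CPM + 1) after the mean of each gate had been subtracted, among 5864 genes. The first were *Eif3g* for *Gzma* (r = 0.976), *Cdkn1b* for *Gzmb* (0.949), *Acp5* for *Gzmk* (0.960), *Atp6v0c* for *Prf1* (0.985), *Cd53* for *Nkg7* (0.991), *Tln1* for *Ctsw* (0.978), *Cd27* for *Klrb1c* (0.975) and *Mrto4* for *Klrd1* (0.956). The 8 points came from 2 libraries and 2 mice, each value is the highest of many, and no test is given.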

How the data were processed

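IL-4eGFP+ (both runs) and IL-4eGFP- (second run) CD4+ cells were read with 10x 5′ single-cell libraries. The authors made the deposited UMI count matrices with Cell Ranger on mm10 (GRCm38). The submitters' processing notes name versions 2.1.1, 3.0.1 and 6.1.2, and 2 sequencing runs of each lung or MLN library were combined. Whether depth was equalised when libraries were aggregated is not given in the sources used here. To be kept, a cell needed more than 500 UMIs, more than 500 detected genes and a novelty score above 0.8, mitochondrial transcripts had to stay below 7%, and lung and MLN cells needed a paired TCR. Hashtags were called with HTODemux (Seurat 5.3.0), and singlets were kept. Scrublet (scanpy 1.11.5) marked 17 of 5938 and 3 of 19406 cells, under 0.5% of each run. It did not work as a doublet filter, and none was removed by it in the main fits. Of the 17 marked cells, 15 were in lung 2, 2.4% of its 624 cells before the TCR filter.

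UMI counts were summed per sample and tested with edgeR 4.0.16 (R 4.3.3; quasi-likelihood test, TMM, low-count filter, Benjamini-Hochberg over all genes tested, threshold 0.05), with TCR genes left out. DESeq2 1.42.0 was an alternative. Clusters used 2000 variable genes less TCR genes and the 9 members, 15 principal components and Louvain resolution 0.8. Shares were also read after thinning cells to 2000 UMIs. Cells with fewer UMIs were left out of thinned shares, which therefore cover another, deeper set of cells than the shares before thinning. Intervals of shares are exact at 95%, and a count of 0 allows 3 counts. The 95% intervals of log2 differences are normal approximations from the SE, not exact, and can be too narrow with so few samples. Scripts were tested on simulated data. The members and all lists were chosen with earlier results of these data known. Related genes were named, at most 5 per list and comparison, from those called with a mean of at least 20 CPM, by size of change. Companion and most similar genes were the first 5 and the first of the ranking given beside them.

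Samples with the same mouse number came from the same animal within a run, so the pairing comes from the design. Their deviations correlated at r = 0.08 (lung and MLN), 0.35 and -0.02 (nodes, IL-4eGFP+ and IL-4eGFP-), and 0.20 and 0.18 (between gates).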

Additional observations from a re-analysis of the deposited data

Results flagged for a closer look

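The 1224 lung and MLN cells that passed the RNA filters but had no paired TCR entered only 1 alternative of the comparison of lung with MLN, and all 9 genes were seen in them above the 0.555 CPM that a count of 0 allows. Their pooled levels were 20.3 CPM for *Gzma*, 73.6 for *Gzmb*, 2.03 for *Gzmk*, 0.739 for *Prf1*, 46.6 for *Nkg7*, 67.3 for *Ctsw*, 11.8 for *Klrb1c*, 2.03 for *Klrd1* and 3.88 for *Klrk1*. The cells with a TCR stood at 18.0, 48.0, 1.25, 0.198, 39.5, 39.8, 6.67, 0.660 and 0.891 CPM in the same order. The pooled values mix libraries in different proportions, and the order differed between libraries. In MLN 1 and 2, *Ctsw* stood at 67.8 and 109.9 CPM without a TCR against 15.8 and 31.9 with one. *Nkg7* stood there at 53.5 and 77.8 against 20.5 and 19.2, and *Klrb1c* at 32.8 and 27.0 against 9.23 and 12.1. Some genes had the opposite order within a library. *Ctsw* without a TCR stood at 55.8 and 71.0 CPM in lung 1 and 2 against 66.4 and 96.5 with one, and *Nkg7* in lung 1 at 34.2 against 81.8. *Gzma* stood at 0 against 9.29 in lung 2 and at 1.69 against 6.92 in MLN 2. No test was made.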

How the results depend on the processing

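Across all alternatives, 471 log2 differences of single members kept direction and side of the threshold, 21 gained a call, 16 lost one and 26 changed sign. The alternative without doublets removed no node cell, so its node differences could not change, and they are counted among the 471. Called members between lung and MLN rose from 3 to 6 without the low-count filter and to 5 with the mouse as a replicate block, and ran from 3 to 5 when 1 sample was left out. Between the nodes they stayed at 3 with the block in IL-4eGFP+ cells (0 to 4 on leaving out 1 sample) and rose from 0 to 1 in IL-4eGFP- cells (1 to 2). Between the gates 8 were called with the block (7 to 8 on leaving out 1 sample). For the difference between gates, DESeq2, no filter and the block each called 1, against 0. For the TRAV11-TRAJ18 cells, no filter called 8 and the library block 7, against 5, and leaving out 1 library 3 to 4. The causes were not tested.

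Differences that changed sign on leaving out 1 sample ran, between lung and MLN, from -2.18 to 0.029 for *Gzma* and -0.99 to 2.74 for *Gzmb*. Between IL-4eGFP+ nodes they ran from -0.24 to 0.22 for *Ctsw* and -0.97 to 0.45 for *Gzmb*, and between IL-4eGFP- nodes from -0.24 to 0.077 for *Ctsw*, -1.12 to 1.92 for *Gzmb*, -0.33 to 0.43 for *Nkg7* and -0.21 to 0.067 for *Prf1*. For the difference between gates they ran from -0.15 to 0.32 for *Ctsw*, -2.46 to 0.74 for *Gzma*, -2.36 to 0.73 for *Gzmb*, -3.72 to 0.14 for *Gzmk* and -0.55 to 2.90 for *Klrd1*. Without the Treg-like cluster, chosen after the data had been seen, *Ctsw* between IL-4eGFP+ nodes was -0.0035, and the difference between gates was 0.34 for *Gzma* and 0.062 for *Gzmb*. None of these was called in the main comparison.

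Over all genes, 3284 were called between lung and MLN, against 1695 by DESeq2 and 1918 without MLN 1. Between IL-4eGFP+ nodes 144 were called, against 47 without the filter, 13 without medLN 1 and 49 without medLN 2. Between IL-4eGFP- nodes 19 were called, against 2 without the filter, 65 with the block, 5 in the fit over all 8 samples and 98 to 194 on leaving out 1 sample. For the difference between gates 18 were called, against 34 by DESeq2, 68 without the filter, 81 with the block and 4 to 13 on leaving out 1 sample. For the TRAV11-TRAJ18 cells 385 were called, against 250 with high-confidence, full-length contigs of more than 1 UMI and 147 to 274 on leaving out 1 library.

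Thinning to 2000 UMIs lowered 42 of 72 shares beyond their counting interval and thinning to 1000 lowered 61. *Gzmk*, *Klrd1* and *Klrk1* rest on few UMIs throughout, and differences in them of ordinary size were not detectable at this depth.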
